A study of Mus musculus with 16 samples.

Results

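The 6 genes described here, whose RNA is known to change around the two-cell stage of the mouse embryo, are Zscan4c, Zfp352, Duxf3, Sp110, Ubtfl1 and Eif1a, of 19324 gene symbols on the array. They were taken as every probe set whose platform annotation lists one of the symbols, and for Zscan4c also a probe set that is shared by several Zscan4 genes. This gave 12 probe sets of 45037 that report transcripts: 1 for Zscan4c, 2 for Zfp352, 2 for Duxf3, 3 for Sp110, 1 for Ubtfl1 and 3 for Eif1a. Of these, 9 list 1 gene symbol and 3 list several. The study measured total RNA of mouse two-cell embryos on 16 one-colour oligonucleotide arrays, 4 in each of 4 groups. In BBB embryos the ooplasm, the maternal pronucleus and the paternal pronucleus were all of the B6 strain. In BCB embryos the maternal pronucleus was of the C3H strain, and the ooplasm and the paternal pronucleus were of B6. Each kind was analysed without treatment and after α-amanitin, which the labels write as α-amantin. The dose, the hours of exposure, the number of embryos per array and the way the pronuclei were placed are facts that the sources used here do not state. Nothing in them says that arrays of a group came from separate embryo pools, so p-values measure the spread between these arrays, which may be technical.

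As background, the two-cell stage is when the mouse embryo starts large-scale transcription of its own genome, and α-amanitin blocks RNA polymerase II. Dux is a double homeodomain transcription factor, encoded in a tandem repeat, that appears briefly as transcription starts and activates two-cell genes, among them the Zscan4 cluster and Zfp352. Zscan4 proteins carry a SCAN domain and zinc fingers and are known for their part in telomere maintenance. Zfp352 is a zinc finger protein found in the two-cell embryo. Ubtfl1 is an HMG-box protein related to the ribosomal gene factor Ubtf, and Sp110 is a nuclear body protein of the Sp100 family. Eif1a is a translation initiation factor of which several related copies are transcribed in the two-cell embryo.

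Promoter windows from RefSeq (GRCm38.p6, 300 bases, from 250 before to 50 after the annotated start) are shown for members except Eif1a, and for Gm4027. Capitals mark a stretch shared by Zfp352 and Sp110 or by Ubtfl1 and Gm4027, or a match to a short motif. Letters are given 5′ to 3′ on the gene's strand. In the Zscan4c window, at chr7:11005495-11005794 on the plus strand, capitals mark the letters TATAAA at bases 197 to 202. In the windows of Zfp352 (chr4:90218570-90218869, plus strand) and Sp110 (chr1:85603842-85604141, minus strand, one of 2 listed starts), capitals mark a 15-base stretch that each holds 3 times.
Zscan4c: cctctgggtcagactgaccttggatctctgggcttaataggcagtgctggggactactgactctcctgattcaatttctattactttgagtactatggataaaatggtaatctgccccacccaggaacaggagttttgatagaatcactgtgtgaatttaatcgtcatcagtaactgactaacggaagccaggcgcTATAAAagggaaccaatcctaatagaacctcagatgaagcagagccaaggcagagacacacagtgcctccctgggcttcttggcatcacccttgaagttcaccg
Zfp352: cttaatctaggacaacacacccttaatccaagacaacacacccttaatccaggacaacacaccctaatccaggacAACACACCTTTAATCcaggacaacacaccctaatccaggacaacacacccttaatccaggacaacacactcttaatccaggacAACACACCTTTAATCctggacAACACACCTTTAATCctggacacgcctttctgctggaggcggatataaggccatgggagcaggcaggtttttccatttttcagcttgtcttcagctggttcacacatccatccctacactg
Sp110: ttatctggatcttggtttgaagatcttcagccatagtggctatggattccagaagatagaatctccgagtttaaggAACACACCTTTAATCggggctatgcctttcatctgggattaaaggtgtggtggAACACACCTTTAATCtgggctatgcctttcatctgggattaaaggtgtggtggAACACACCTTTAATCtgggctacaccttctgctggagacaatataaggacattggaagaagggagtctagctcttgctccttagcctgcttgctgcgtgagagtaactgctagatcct
The best local alignment of the Zfp352 and Sp110 windows paired 64 bases with 53 identical, 82.8%, with 3 gap bases not counted. The 15-base stretch stood in 23 of 32851 RefSeq mouse promoter windows, 0.07%, and was picked out after the sequences had been seen.

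Gm4027 is listed together with Eif1a on one probe set, and its window was compared with that of Ubtfl1. For Ubtfl1 (chr9:18404168-18404467, plus strand) and Gm4027 (chr12:87618659-87618958, plus strand), capitals mark a 20-base stretch found in both. In the Duxf3 window (chr10:58233040-58233339, minus strand), capitals mark a match to GATTNAATC, the core of a double homeodomain motif.
Ubtfl1: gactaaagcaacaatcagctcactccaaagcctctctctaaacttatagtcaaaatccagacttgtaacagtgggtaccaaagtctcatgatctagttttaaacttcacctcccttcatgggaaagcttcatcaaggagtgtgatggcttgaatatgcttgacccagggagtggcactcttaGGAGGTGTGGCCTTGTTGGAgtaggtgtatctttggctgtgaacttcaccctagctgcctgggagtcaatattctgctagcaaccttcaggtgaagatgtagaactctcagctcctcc
Gm4027: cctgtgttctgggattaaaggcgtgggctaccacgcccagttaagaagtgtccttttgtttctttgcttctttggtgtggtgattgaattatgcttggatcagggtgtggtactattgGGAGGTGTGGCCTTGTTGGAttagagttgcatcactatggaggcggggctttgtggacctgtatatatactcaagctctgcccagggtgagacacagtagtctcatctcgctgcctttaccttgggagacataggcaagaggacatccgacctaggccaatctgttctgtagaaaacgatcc
Duxf3: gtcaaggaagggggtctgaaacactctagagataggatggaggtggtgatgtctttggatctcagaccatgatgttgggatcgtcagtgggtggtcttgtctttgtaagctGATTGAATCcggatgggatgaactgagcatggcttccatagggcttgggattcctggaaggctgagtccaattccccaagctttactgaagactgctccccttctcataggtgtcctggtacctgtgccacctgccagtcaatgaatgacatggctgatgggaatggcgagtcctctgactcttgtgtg
Between Ubtfl1 and Gm4027 the best local alignment held 57 identical bases of 67, 85.1%, with 2 gap bases not counted. The 20-base stretch stood in 24 of the 32851 windows, 0.073%, and was also picked out after the sequences had been seen. Searched on both strands, GATTNAATC stood in 0.268% of all windows and in 1 of 11 windows of member genes and genes that share their probe sets. No Eif1a window was among the 11, nor one of Zscan4a or Gm9919. TATAAA stood in 13.6% of all windows and in 3 of those 11, namely Zscan4c, Zscan4d and Zscan4f. TGCACAC stood in 4.40% of all windows and in none of the 11. A match is a description of the letters and says nothing of binding. In the best local alignment, the Zscan4c window matched that of Zscan4f at 275 of 277 aligned bases (99.3%). It matched that of Zscan4d at 280 of 287 (97.6%).

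The deposited intensities were already on a common scale: the mean without the highest and the lowest 2% of values was 150.0 on every array. Untreated and treated arrays are therefore compared relative to that mean, and RNA per embryo is not measured, nor can fewer cells with a transcript and less RNA per cell be told apart. Poly-A control RNAs were higher after α-amanitin, by 1.86 in BBB and 1.88 in BCB (log2 units), and hybridization controls by 0.55 and 0.81. The part of this in the results below was not tested, so values scaled to these controls are given where they end a call. Of 15 oocyte and embryo marker genes, 14 were on the array, all with group means at or above the 40th percentile, and their summed intensity was 22793 to 27597 in BBB, 23713 to 26398 in BCB, 39531 to 42593 in BBB with α-amanitin and 36591 to 39535 in BCB with α-amanitin. The 10 cumulus and granulosa markers on the array summed to 189 to 220 in BBB, 196 to 232 in BCB, 316 to 399 in treated BBB and 376 to 403 in treated BCB. Of 7 that could be tested, 5 rose in BBB and 3 in BCB. The 7 blood and stroma markers summed to 95.2 to 124, 86.4 to 104, 152 to 234 and 178 to 227 in the same order, and 2 of 5 tested rose in each kind. Over all tested genes 37.1% were higher in BBB and 39.9% in BCB. With poly-A controls none of these markers passed as higher. As lower passed 4 cumulus markers in each kind of embryo, and 4 blood and stroma markers in BBB and 3 in BCB. Under that scaling 82.2% of all probe sets passed in either direction in BBB and 79.8% in BCB. None of the cumulus, blood or stroma markers was at exactly 0 or had a group mean of 200 or more. Their part in the results below was not tested.

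With α-amanitin, 10 of the 12 probe sets fell and 2 rose, in BBB and in BCB alike, and the treated and untreated arrays did not overlap for any of the 12. The 10 that fell are all probe sets of Zscan4, Zfp352, Sp110, Ubtfl1 and Eif1a, and the 2 that rose are both of Duxf3. Of the 31953 probe sets tested with limma, 31.9% were lower and 34.3% higher in BBB, and 30.3% lower and 37.6% higher in BCB (adjusted p under 0.05). Non-overlapping groups were found in 29.1% (lower) and 30.9% (higher) of all probe sets in BBB, and in 27.8% and 33.0% in BCB. For the 12 together the median log2 change was -3.03 (BBB) and -3.04 (BCB), beside 0.09 and 0.16 over all probe sets. All log2 changes are differences of log2(intensity + 16), so changes of dim probe sets are understated on that scale, whereas folds and percentages are ratios of mean intensities.

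**Figure D1:**
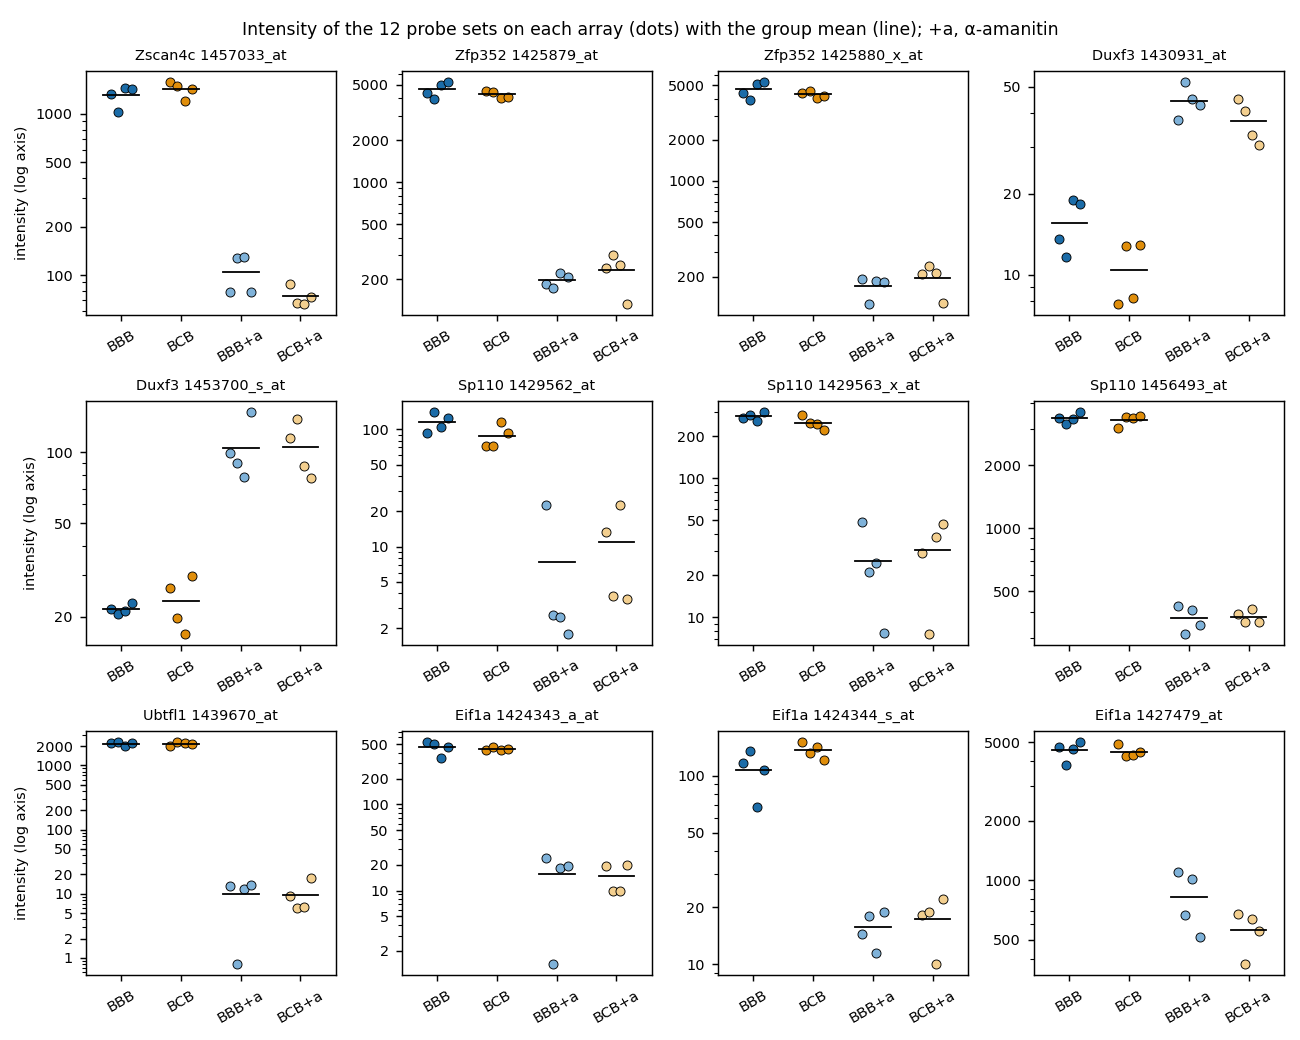
Intensity (log axis) of the 12 member probe sets on each array, with 1 panel per probe set, dots for the 4 arrays of each group and a line for the group mean (+a, α-amanitin). Duxf3 dots sit higher with α-amanitin, and dots of the other 10 probe sets sit lower, without overlap in BBB or in BCB.

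Duxf3, the double homeodomain gene, moved up on this scale. The probe set 1430931_at, which lists Duxf3 alone, read 13.6, 11.6, 19.0 and 18.3 in BBB and 37.6, 52.3, 45.0 and 42.9 in BBB with α-amanitin. In BCB it read 7.8, 12.8, 8.2 and 12.9 untreated and 45.2, 40.7, 33.0 and 30.4 with α-amanitin. All 8 treated arrays lay above all 8 untreated ones, but the untreated values are dim: the 40th percentile of an array, used as a floor for testing, was 10.8 to 14.1. The group means were 15.6 ± 3.6 (SD, n = 4) against 44.5 ± 6.1 in BBB, 2.84-fold higher, and 10.4 ± 2.8 against 37.3 ± 6.8 in BCB. In untreated BBB only 3 of 4 arrays reached that floor, which limits the fold. No fold is given for BCB, where the untreated mean lay below that floor and 2 of 4 arrays reached it. The log2 changes were 0.94 (SE 0.15; limma adjusted p = 1.02e-05) and 1.01 (adjusted p = 3.59e-06). In order of level, BBB with α-amanitin stood highest, then BCB with α-amanitin, BBB and BCB, and neighbours of the same treatment overlapped.

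The second Duxf3 probe set, 1453700_s_at, also lists Gm9919 and Gm4981, so its signal can come from several repeat copies. It read 21.5, 20.6, 21.2 and 22.8 in BBB and 99.0, 89.6, 78.3 and 148.4 in BBB with α-amanitin. In BCB it read 26.5, 19.8, 16.9 and 29.8, and with α-amanitin 115.5, 139.0, 87.8 and 78.1. Again no treated array reached down to an untreated one. The means rose 4.82-fold in BBB (log2 change 1.64, SE 0.18; limma adjusted p = 2.84e-08) and 4.52-fold in BCB (1.61; adjusted p = 4.00e-08). The call of each Duxf3 probe set was lost on another scale. With arrays set to their poly-A controls, 1430931_at was at -0.22 (limma adjusted p = 0.306) in BBB and 0.00 (0.989) in BCB, and 1453700_s_at by 0.28 (0.219) and 0.23 (0.324). Under that scaling the median of all probe sets was -1.09 in BBB and -1.02 in BCB, so all Duxf3 values remained above the median.

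Zscan4, the telomere-linked two-cell gene cluster, fell to a small share of its untreated level. Its only probe set, 1457033_at, lists Zscan4a, Zscan4c, Zscan4d and Zscan4f with 2 further loci, so its signal is not assigned to one copy. It read 1331.8, 1020.8, 1454.6 and 1421.9 in BBB and 78.8, 128.5, 130.3 and 78.5 with α-amanitin. The BCB arrays read 1583.2, 1481.5, 1204.0 and 1435.3 untreated and 88.2, 67.6, 66.5 and 72.7 with α-amanitin. Among the treated BBB arrays 2 were higher (128.5 and 130.3) than the other 2, and the treated BCB arrays lay between 66.5 and 88.2. Mean intensity fell from 1307 ± 198 (SD, n = 4) to 104.0 ± 29.3 in BBB, 7.96% of the untreated mean, and from 1426 ± 160.4 to 73.8 ± 10 in BCB, 5.17%. These are log2 changes of -3.48 (SE 0.15; limma adjusted p = 2.01e-15) and -4.01 (adjusted p = 1.52e-16).

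Zfp352 fell by a similar amount on both of its probe sets. On 1425879_at the BBB arrays read 4334.4, 3971.2, 4951.6 and 5246.8, and with α-amanitin 186.2, 175.1, 221.2 and 209.7. The BCB arrays read 4467.4, 4431.3, 4012.4 and 4110.0, and with α-amanitin 242.0, 298.2, 254.8 and 134.1. The treated means were 4.28% and 5.46% of the untreated means, with log2 changes of -4.44 (SE 0.15; limma adjusted p = 2.62e-17) in BBB and -4.15 (adjusted p = 7.95e-17) in BCB. The lowest treated BCB array, 134.1, lay below all treated BBB arrays and the other 3 lay above them. On 1425880_x_at, whose suffix marks probes that can bind other transcripts, the changes were -4.65 and -4.37, and treated arrays read 126.8 to 237.1.

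Ubtfl1, the HMG-box gene, showed the largest drop among the 12 probe sets. It read 2206.9, 2314.7, 1983.8 and 2246.3 in BBB and 13.1, 0.8, 12 and 13.7 with α-amanitin. In BCB it read 2030.0, 2299.7, 2256.5 and 2172.3, and with α-amanitin 9.1, 5.9, 6.2 and 17.3. The 8 untreated arrays spanned 1983.8 to 2314.7, and the 8 treated ones spanned 0.8 to 17.3. Means were 2188 ± 143 (SD, n = 4) in BBB and 2190 ± 119 in BCB, and 9.9 ± 6.1 and 9.6 ± 5.3 with α-amanitin. Only 3 of 4 treated BBB arrays and 1 of 4 treated BCB arrays reached the 40th percentile, so no fold is given. The log2 change was -6.45 in both (SE 0.16; limma adjusted p = 1.33e-19 and 1.41e-19). With such dim treated values the size depends on the constant added before the logarithm: it was -8.03 in BBB with a constant of 1 and -4.93 with 64.

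Sp110 fell on all 3 of its probe sets. The brightest, 1456493_at, read 3391.0, 3167.8, 3344.8 and 3608.6 in BBB and 422.8, 312.7, 405.6 and 345.2 with α-amanitin. Its BCB arrays read 3017.7, 3430.7, 3358.0 and 3444.1, and with α-amanitin 388.0, 357.5, 409.3 and 356.0. These are tight groups, and the means after treatment were 11% and 11.4% of the untreated ones. The log2 changes were -3.14 (SE 0.094; limma adjusted p = 2.43e-18) and -3.08 (adjusted p = 3.15e-18). The dimmer 1429562_at went from 115 ± 21.2 (SD, n = 4) to 7.3 ± 10.1 in BBB and from 88.2 ± 20.8 to 10.8 ± 9.1 in BCB, with log2 changes of -2.56 and -2.0. Only 1 of 4 treated arrays in each kind reached the 40th percentile, so the floor limits these sizes. On 1429563_x_at the changes were -2.92 and -2.61, with treated arrays between 7.6 and 48.1.

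Eif1a, the translation initiation factor, fell on all 3 of its probe sets. On 1424343_a_at, which lists Eif1a alone, BBB arrays read 529.6, 507.4, 348.8 and 465.8, and treated ones 23.6, 1.4, 18.1 and 19.1. BCB arrays read 433.4, 468.5, 427.7 and 440.6, and treated ones 19.4, 9.9, 9.8 and 19.6. Its log2 changes were -3.97 (SE 0.20; limma adjusted p = 2.93e-14) and -3.92 (adjusted p = 3.80e-14). On 1424344_s_at the changes were -1.93 and -2.21, from untreated arrays of 68.1 to 151.1 to treated arrays of 10 to 22.1. Treated values of 1424343_a_at and 1424344_s_at lay near the floor, which limits the sizes of their changes. The third, 1427479_at, also lists Gm4027 and BB287469, which are separate genes, and it read 1094.8, 666.1, 1015.2 and 512.2 in treated BBB and 672.3, 375.5, 633.9 and 549.3 in treated BCB. Its untreated arrays read 4736.1, 3832.4, 4612.1 and 5003.3 in BBB and 4876.3, 4235.7, 4324.5 and 4458.9 in BCB, and the changes were -2.50 (SE 0.18; adjusted p = 1.27e-11) and -3.0 (adjusted p = 5.23e-13).

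Where a gene had several probe sets, the size of its change was compared between them by an exact two-sided permutation test within each kind of embryo. The smallest p that 4 arrays against 4 allow is 0.0286, and no pair passed after adjustment over 16 tests (lowest adjusted p = 0.0508). Several comparisons stood at that smallest p, among them the Duxf3 pair in BBB and in BCB. The missed threshold therefore does not show that probe sets of a gene changed alike. The largest gap was between Eif1a 1424343_a_at and 1424344_s_at, 2.04 log2 units in BBB and 1.71 in BCB. After α-amanitin both lay near the floor, with means of 15.6 and 15.7 in BBB and 14.7 and 17.3 in BCB. Their untreated means in BBB were 463 and 107. The gap therefore cannot be told apart from a difference in untreated brightness. The change of Zfp352 1425880_x_at minus that of 1425879_at was -0.21 in BBB and -0.22 in BCB. For Duxf3, the change of 1453700_s_at minus that of 1430931_at was 0.71 and 0.60.

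**Figure D2:**
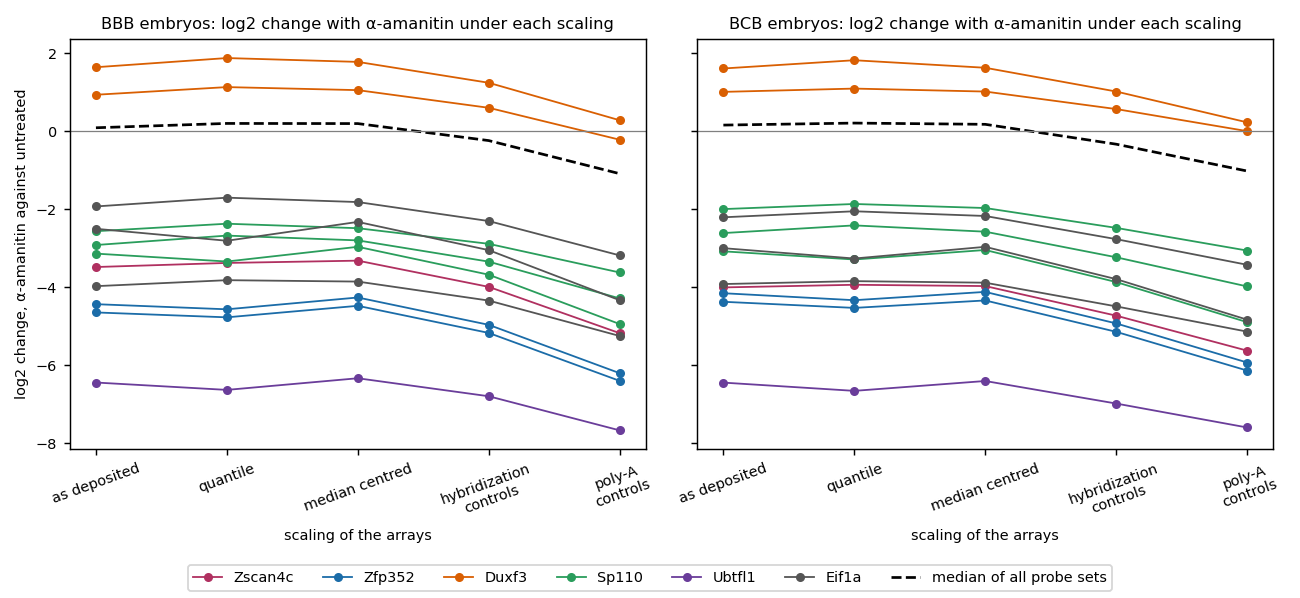
Log2 change with α-amanitin of each of the 12 probe sets (lines coloured by gene) and the median of all probe sets (dashed), under the deposited scale, quantile normalization, median centring, hybridization-control scaling and poly-A-control scaling. The 10 lower probe sets stay below -1.5 in every setting, and the Duxf3 lines reach 0.28 at most under poly-A scaling.

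The second question of the design is whether the strain of the maternal pronucleus changes these genes. Between untreated BCB and untreated BBB, none of the 12 probe sets passed the limma test, and 0 had an unadjusted p under 0.05, while 0.613% of all probe sets passed. The 4 arrays of BCB and the 4 of BBB overlapped for all 12, where 3.55% of all probe sets were lower and 2.77% higher in BCB without overlap. The 95% intervals on the log2 scale were -0.19 to 0.45 for Zscan4, -0.43 to 0.20 for Zfp352 1425879_at, -0.22 to 0.17 for Sp110 1456493_at, -0.33 to 0.34 for Ubtfl1 and -0.39 to 0.35 for Eif1a 1427479_at. The interval was -0.58 to 0.06 for Duxf3 1430931_at, -0.84 to 0.16 for Sp110 1429562_at and -0.02 to 0.70 for Eif1a 1424344_s_at. These intervals leave room for moderate differences either way, and a missed threshold does not show that the kinds of embryo are alike.

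With α-amanitin, BCB against BBB also passed for none of the 12 probe sets, beside 0.113% of all. The groups overlapped again for all 12, and 1.51% of all probe sets were lower and 2.33% higher in BCB without overlap. In order of level, both untreated groups thus stood above both treated groups for the 10 probe sets that fell and below them for Duxf3, and neighbours of one treatment did not separate. Unadjusted p was under 0.05 for 2: Zscan4, at -0.39 (95% interval -0.71 to -0.08; limma adjusted p = 0.347), and Eif1a 1427479_at, at -0.51 (-0.89 to -0.14; adjusted p = 0.291). Treated Zscan4 arrays overlapped between BBB (78.5 to 130.3) and BCB (66.5 to 88.2). The response to α-amanitin itself was tested for a difference between BCB and BBB by an interaction term, and none of the 12 passed, beside 0.257% of all probe sets. Zscan4 had the only unadjusted p under 0.05, with a difference of -0.52 (-0.97 to -0.08; adjusted p = 0.483).

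**Figure D3:**
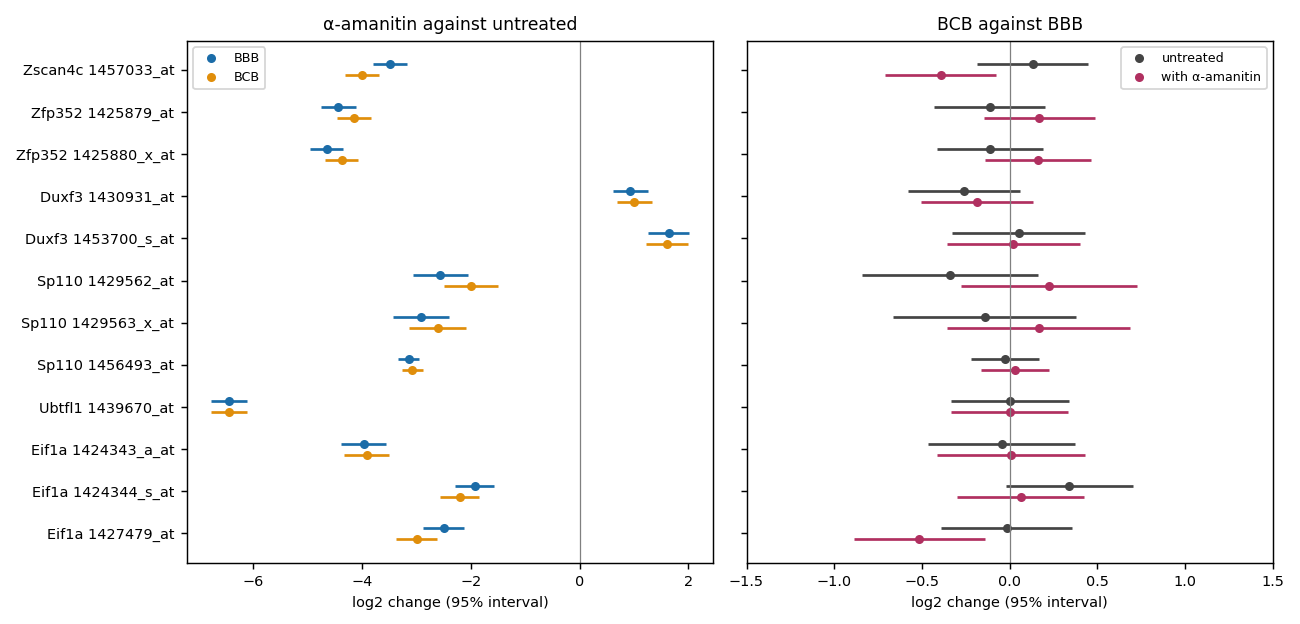
Log2 change with its 95% interval for each of the 12 probe sets, for α-amanitin against untreated in BBB and BCB (left) and for BCB against BBB untreated and with α-amanitin (right). On the left only Duxf3 lies above 0. On the right the points lie between -0.51 and 0.34.

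The other genes of the Dux and Zscan4 two-cell network came from a list chosen with earlier results of these data known. Of 25 listed genes, 11 could be tested on a probe set with 1 symbol, and all 11 fell with α-amanitin in both kinds of embryo, beside 33.4% of all tested genes lower in BBB and 32.2% in BCB, and 37.1% and 39.9% higher. The median over these genes was -4.38 for BBB and -4.40 for BCB on the log2 scale, against 0.11 and 0.17 over all genes. All 11 passed as lower under each of the 4 other scalings as well. With poly-A controls, however, 82.2% of all probe sets passed in either direction in BBB and 79.8% in BCB. The network median was then -5.96 and -5.80, beside -1.175 and -1.13 over all genes. The count of 11 leaves out listed genes read only from probe sets with several symbols. Of these, described below, Duxbl1 rose on the deposited scale, and Gm8300, Usp17lc and Usp17ld fell. Pramel6 and Pramel7, of the leucine-rich Prame family, changed by -5.94 and -5.29 on the log2 scale in BBB. Trim43a, of the tripartite motif family, fell from 3189 ± 68.5 to 78.0 ± 14.1 in BBB (log2 change -5.10). The BTB-domain gene Tdpoz1 changed by -4.93, and the ubiquitin protease gene Usp17la by -4.48. Heat shock genes Hspa1a and Hspa1b, known early transcripts of the mouse embryo, changed by -4.35 and -4.14. Tcstv3 and Tcstv1, named as two-cell genes, changed by -1.90 and -1.41, and the arginase gene Arg2 by -1.40.

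Duxbl1, of a Dux-like double homeobox family, was also on the network list. It was covered by probe sets that each list several Duxbl genes, 2 of which could be tested. Both passed as higher on the deposited scale in both kinds of embryo. They changed by 0.53 and 0.69 in BBB and by 0.47 and 0.66 in BCB, but in BBB were at -0.02 and 0.13 with hybridization controls and at -1.32 and -1.17 with poly-A controls. Their direction therefore depended on the scale.

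Genes known to act before Dux were also listed, and 6 of 7 could be tested. In both kinds of embryo 4 fell and 2 rose, beside the shares of all genes given above for the network. The 4 were Obox6 (-5.90 in BBB), Obox3 (-5.02), which are homeobox genes of the oocyte and early embryo, and Dppa4 (-4.88) and Dppa2 (-2.14), paired SAP-domain proteins. The 2 that rose were Obox5 (1.25) and Nelfa (0.28), a subunit of the negative elongation factor, and both were below 0 under poly-A scaling, at -0.61 and -1.56 in BBB. The Nelfa call in BBB also ended with quantile normalization, at 0.16 (limma adjusted p = 0.227). With hybridization controls Nelfa was at -0.27 (adjusted p = 0.0602) in BBB and -0.19 (0.188) in BCB. Nelfa was lower in untreated BCB than in untreated BBB, at 715 ± 67.8 (SD, n = 4) against 1047 ± 159 (log2 change -0.53; limma adjusted p = 0.0230). That call ended with arrays centred on their medians (adjusted p = 0.0663), with hybridization controls (0.157) and with poly-A controls (0.111).

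Known repressors of Dux or of the two-cell state lay on both sides of 0. Of 17 that could be tested, 10 were lower and 6 higher in BBB, and 10 were lower and 5 higher in BCB, beside the shares of all genes given above for the network. With hybridization controls 11 were lower and 1 higher in BBB, and 12 lower and 1 higher in BCB. Under that scaling 61.3% of all probe sets passed in either direction in BBB and 60.3% in BCB. The median of the 17 was then -1.125 and -1.35, beside -0.25 and -0.37 over all genes. On the deposited scale the histone deacetylase Hdac1 changed by -3.96 in BBB and -4.17 in BCB. The corepressor Trim28 changed by -2.93 and -2.87, and L3mbtl2, of a polycomb complex, by -2.28 and -2.41. Lin28a, an RNA-binding protein, rose by 1.97 and 1.76, and Chaf1b, a subunit of chromatin assembly factor 1, by 0.74 and 0.52. Chaf1b was at 0.21 (limma adjusted p = 0.220) and -0.24 (0.168) with hybridization controls, and lower, at -1.02 and -1.24, with poly-A controls. Under poly-A scaling 16 of the 17 passed as lower and none as higher, and Lin28a was at 0.14 and -0.09. Of all probe sets, 82.2% passed in either direction under that scaling in BBB and 79.8% in BCB. The median of the 17 was then -2.38 and -2.37, beside -1.175 and -1.13 over all genes. Among relatives of the member genes, Ubtf, the ribosomal gene factor, changed by -2.60 in BBB and -2.55 in BCB, and Eif1ax by -0.72 and -0.71. Sp100 rose by 1.02 and 0.93, but was at -0.05 and -0.02 under poly-A scaling. Its untreated means, 12.1 in BBB and 11.5 in BCB, lay near the floor used for testing, which limits these sizes.

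**Figure D4:**
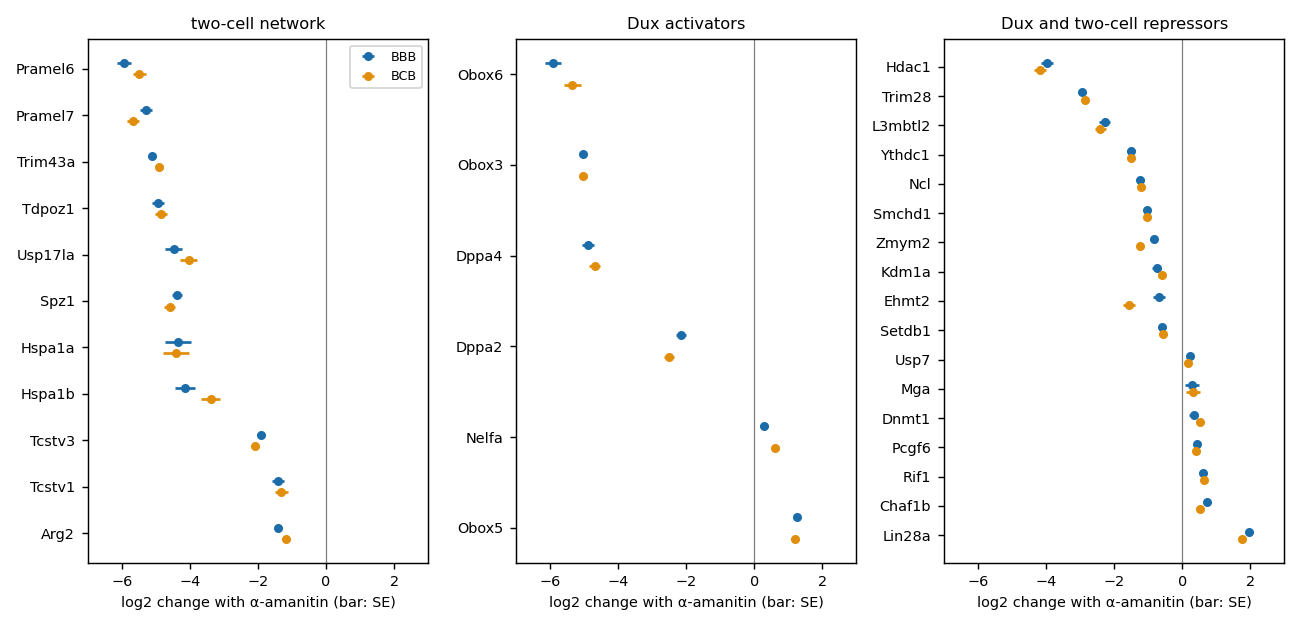
Log2 change with α-amanitin, with its SE, of each tested gene of the two-cell network, of genes acting before Dux and of repressors of Dux or the two-cell state, in BBB and BCB. All 11 network genes lie left of 0, whereas the other lists lie on both sides.

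The genes whose pattern over the 16 arrays came closest to each member were found by the root mean square difference of centred log2 values, over 14106 genes, a description in which all points share the 4 groups. Zscan4 was closest to Atp5g3 (0.213) and Aimp2 (0.214). Zfp352 was closest to Slc16a6 (0.203) and Zscan5b (0.226). Duxf3 1453700_s_at was closest to Rttn (0.169), with 630 genes within 0.3. Sp110 1456493_at was closest to Noc2l (0.0939), with 311 within 0.3, and Ubtfl1 to Riox1 (0.227), with only 4 within 0.3. Eif1a 1427479_at was closest to Wrap53 (0.241).

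Other genes that hold the promoter stretches printed above were looked up. Other than the members, 2 tested genes hold the stretch of Zfp352 and Sp110, Pemt at -1.88 and Gm33248 at -2.78 in BBB, both lower. Other than Ubtfl1, 2 tested genes hold the stretch of Ubtfl1 and Gm4027, Nqo2 at 0.89 and 2500002B13Rik at 1.28, both higher. Of 22 tested genes with the GATTNAATC core, Pemt and Gm33248 again among them, 9 were lower and 7 higher in BBB. In BCB 8 were lower and 8 higher. Over all tested genes, 33.4% were lower and 37.1% higher in BBB, and 32.2% and 39.9% in BCB.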

How the data were processed

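RNA of two-cell embryos, extracted by Picopure and biotin-labelled by ENZO kits per the labels, was measured on 16 arrays. The authors deposited intensity values on a linear scale, already scaled per array; the software is not given in the sources used here. Probe sets were named from platform annotation of 2016: 34945 list 1 gene symbol, 932 several and 9160 none. Values were used as log2(intensity + 16). Testing needed a value at or above the 40th percentile of the array on 4 or more arrays, which left 31953 probe sets and removed 13084; all 12 member probe sets passed. limma 3.58.1 (R 4.3.3) fitted 4 group means with an intensity trend over all 16 arrays, with Benjamini-Hochberg adjustment over 31953 and a threshold of 0.05. No array pair was identical and 0 sample columns were unused. Array numbers did not pair samples (same-number correlations -0.087 to 0.107 over 24 pairs). Genes outside the members were named from lists, or as the nearest in pattern. Promoter windows are RefSeq's. Members and lists were chosen with earlier results of these data known. The fit was tested on simulated data. The number of arrays limits precision.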

Additional observations from a re-analysis of the deposited data

Results flagged for a closer look

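Of 48 groups of 4 arrays, 3 held an array far from the others, where chance flags about 1 in 20. Zfp352 1425880_x_at read 126.8 on the second BBB array with α-amanitin, whereas the other 3 read 183.5 to 192.1, a gap of 0.888 of the range. Without that array the log2 change was -4.52. Sp110 1429562_at read 22.4 on the first BBB array with α-amanitin, beside 1.8 to 2.6 on the others, a gap of 0.943 of the range. Without it the change was -2.83. Ubtfl1 read 0.8 on the second BBB array with α-amanitin, beside 12 to 13.7, a gap of 0.897 of the range. Without it the change was -6.25. Each stayed past the limma threshold, and the causes were not tested.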

How the results depend on the processing

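The counts of 10 lower and 2 higher member probe sets held in BBB and in BCB when each array was left out in turn (10 to 10 and 2 to 2) and with a replicate block (10 and 2), although the numbers do not pair the arrays. With poly-A controls the count of higher probe sets was 0 in BBB and 0 in BCB, and Duxf3 1430931_at turned to -0.22 in BBB; the cause was not tested. Of 672 single values for α-amanitin under the alternatives, 668 kept direction and side of the threshold, 3 lost the threshold and 1 reversed, all 4 of Duxf3 with poly-A controls. The BCB against BBB contrasts and the interaction gave 0 passes under every alternative; the lowest adjusted p was 0.412 untreated, 0.0752 with α-amanitin (Eif1a 1427479_at, -0.72, without the fourth BBB array with α-amanitin) and 0.183 for the interaction (Zscan4, -0.74, hybridization controls). The constant added before the logarithm moved the sizes of dim probe sets: Sp110 1429562_at was at -4.42 with 1 and -1.33 with 64 in BBB. Signs of values that passed in no setting turned in 20 cases for the untreated contrast, 34 with α-amanitin and 31 for the interaction. Signal near the array floor limits the size of the Ubtfl1 change and the untreated level of Duxf3.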

Other observations

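Probe set 1444529_at, which lists Gm2022, Gm8300 and Gm5662, fell from 753 ± 77.8 (SD, n = 4) in BBB to 7.5 ± 2.5 with α-amanitin, a log2 change of -5.03, and -5.37 in BCB. It names several genes and was left out of the count of network genes. Usp17ld and Usp17lc shared 2 probe sets, which changed by -0.86 and -1.60 in BBB. Eif1ad, a relative of Eif1a by name, changed by 0.98 in BBB and 1.14 in BCB, and was at -0.79 and -0.65 with poly-A controls. With hybridization controls its call ended in BCB, at 0.37 (limma adjusted p = 0.0600).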
